A study of Mus musculus with 8 samples.

Results

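Fibroblast growth factor (FGF) signalling was followed in bone cells of mice with and without a healing fracture through 7 genes of the 28956 in the count tables. They encode the receptors Fgfr1, Fgfr2 and Fgfr3 and the ligands Fgf1, Fgf2, Fgf7 and Fgf18, and were chosen by name. All 7 were found in every table. Single cell RNA-sequencing (scRNA-seq) had been done on bone stromal cells of female C57BL/6 mice, collected at 12 weeks of age. In the Fracture group the left leg had been broken by three-point bending at 10 weeks, stabilised with an intramedullary nail and left to heal for 14 days. Control mice were wild type and unfractured, so the surgery, the nail and the carprofen given for pain differ between the groups together with the break. Cells of both groups had been depleted of lineage-positive, CD45+ and CD117+ blood cells. Each group held 2 numbered samples (Control 1 and 2, Fracture 1 and 2), read here as preparations. Each had a rep1 and a rep2, read as 2 libraries of that preparation and summed. This reading comes from the numbering in the titles and is not stated there, and every test rests on it. The labels do not say whether preparations came from different animals, so p-values measure the spread between preparations, which may be technical.

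FGF ligands bind receptor tyrosine kinases at the cell surface together with heparan sulfate, and the activated receptor passes its signal through the adaptor FRS2 to the MAP kinase cascade. Sprouty, Spred and dual-specificity phosphatase genes are targets that damp the same cascade. In bone, FGFR3 is best known as a brake on the growth plate, because activating mutations of its gene cause achondroplasia. FGFR1 marks hypertrophic chondrocytes and osteoblast lineage cells, and FGFR2 acts in osteoprogenitors. FGF18 acts mainly through FGFR3 in cartilage, FGF7 through an epithelial splice form of FGFR2, and FGF1 and FGF2 through several receptors.

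The libraries held 56543151 to 89126291 unique molecular identifiers (UMIs, each standing for 1 captured RNA molecule), and 45328 of 48903 barcodes passed the filters on genes and mitochondrial RNA. Any pair of libraries shared between 11 and 46 barcodes. Clustering, from which all FGF genes had been withheld, gave classes that were named "-like" from markers, and the 6 classes outside the blood were compared. Own markers were present in all 6, but their summed level was not equal between the groups. In the class of bone marrow stromal cells (BMSC-like) it was 27121 and 28466 CPM (UMIs per 1000000 UMIs) in Control against 2001 and 2334 in Fracture. Without integration of the preparations, 78 and 109 Fracture cells were named BMSC-like in place of 1053 and 1132. The lowest barcode held 1 UMI in Control and 1929 in Fracture, so the barcodes had been selected differently before deposit. RNA of chondrocytes was found outside chondrocytes: the chondrocyte markers in erythroid-like cells were at 1.05% and 0.309% of their chondrocyte-like level in Control, and at 23.2% and 23.4% in Fracture. In endothelial-like cells they were at 3.19% and 1.78% against 16.4% and 16.2%, and in smooth muscle-like cells at 2.57% and 1.56% against 14.0% and 9.73%. BMSC-like cells had 0.784% and 0.432% against 3.30% and 3.26%, and fibroblast-like cells 2.41% and 1.52% against 7.75% and 6.23%.

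Summed over all kept cells, the receptors gave far more UMIs than the ligands. Fgfr1 gave 123494 UMIs in 27353 cells, Fgfr3 70556 in 18054 cells and Fgfr2 29794 in 14339 cells. Fgf7 gave 9479 UMIs, Fgf1 3363, Fgf18 885 and Fgf2 465. Within some classes a ligand exceeded a receptor. In Control BMSC-like cells Fgf7 had a mean of 221 CPM and Fgfr1 of 185 CPM. In Control smooth muscle-like cells Fgf1 had a mean of 163 CPM and Fgfr1 of 156 CPM. The reads come from 3′ ends of transcripts, so CPM, the UMIs of a gene set against all UMIs of a class in a preparation, was not divided by gene length. In the mm10 genome (GENCODE M21 annotation) Fgfr1 lies on chromosome 8 at 25513654 to 25575718, Fgfr3 on chromosome 5 at 33721674 to 33737068 and Fgfr2 on chromosome 7 at 130162451 to 133123350, on the minus strand. The ligand genes lie on chromosome 18 (Fgf1, 38838673 to 38929472), chromosome 3 (Fgf2, 37348346 to 37410108), chromosome 2 (Fgf7, 126034658 to 126091185) and chromosome 11 (Fgf18, 33117430 to 33147400). Fgf2 shares sequence with Nudt6 and Fgf2os on the opposite strand and Gm43439 on its own, Fgf7 lies inside Fam227b and Fgf1 inside Arhgap26. The annotated span of Fgfr2 reaches over many other genes, some on its own strand, such as Ate1, Nsmce4a and Cpxm2. Fgfr1 and Fgfr3 each overlap 1 gene on the opposite strand, Gm16159 and G630022F23Rik. The study's methods name STARsolo, set to match the standard 10x pipeline, while the submitters' notes also list featureCounts, so how strand and overlapping genes were treated in these tables is uncertain for these 6 genes.

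The change of each gene was tested within each class by edgeR's quasi-likelihood test on the summed UMIs, and "rose" and "fell" are used below for an adjusted p under 0.05. Over 42 pairs of gene and class, 36 had enough UMIs for the test. In 6 pairs the gene rose and in 12 it fell. Over all genes, 16.1% of tests were called higher in Fracture and 14.9% lower. The ligands supplied 1 of the rises and 8 of the falls among 18 tests, and the receptors 5 rises and 4 falls among 18. The filter on low counts needs enough UMIs only in as many preparations as 1 group holds, so a scarce gene can enter through 1 group. Fgf2 in fibroblast-like and Fgf7 in osteoblast-like cells entered through Control alone, where they were higher, so the filter favoured these falls. The median log2 change was -1.14 for the ligand tests and 0.13 for the receptor tests, where the medians over all genes lay between -0.03 and 0.01 in the 6 classes. These counts need both Fracture preparations: without Fracture 1, or without Fracture 2, only 1 pair was called higher and 2 lower. Over all 14 alternatives some log2 changes moved little, as for Fgf1 in smooth muscle-like (-2.63 to -2.43) and chondrocyte-like cells (-1.72 to -1.41). Others moved widely, as for Fgfr2 in BMSC-like cells (-1.08 to 0.12) and Fgfr3 in smooth muscle-like cells (0.51 to 2.50).

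**Figure D1:**
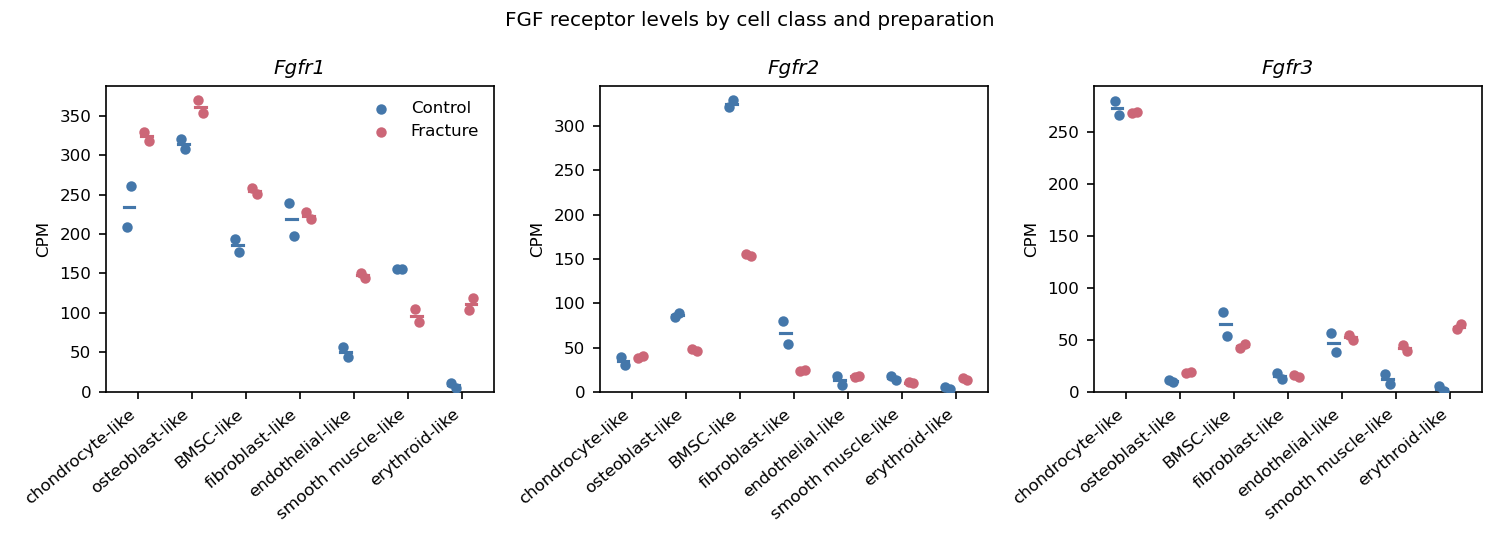
CPM (vertical axes, from 0) of Fgfr1, Fgfr2 and Fgfr3 in each cell class, 1 point for each of the 2 Control and 2 Fracture preparations. Fgfr3 stood at 266 to 280 CPM in chondrocyte-like cells of all 4 preparations, and Fgfr2 was highest in BMSC-like cells, at 321 and 329 CPM in Control and 155 and 153 CPM in Fracture.

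Fgfr1, the receptor found in most classes, rose in chondrocyte-like, BMSC-like and endothelial-like cells and fell in smooth muscle-like cells. Osteoblast-like cells had the highest level in both groups. They held 320 and 307 CPM in Control 1 and 2, and 369 and 353 CPM in Fracture 1 and 2. Both Fracture values were above both Control values, but the change was not called (log2 change 0.14 ± 0.06 SE, edgeR adjusted p = 0.18). In the order of Control levels, chondrocyte-like and then fibroblast-like cells followed, and the ranges of these classes overlapped, whereas in Fracture no neighbours overlapped.

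In chondrocyte-like cells Fgfr1 was at 209 and 260 CPM in Control and 329 and 318 CPM in Fracture, a rise of 0.62 ± 0.12 on the log2 scale (edgeR adjusted p = 0.024). In BMSC-like cells it was at 193 and 177 CPM against 259 and 251 CPM, a rise of 0.66 ± 0.07 (adjusted p = 0.0038). The groups did not overlap in either class. Over all genes, 19.0% of tests in chondrocyte-like cells were called higher and 17.9% lower, and 25.5% and 26.0% in BMSC-like cells, so a call in these classes was common. Without integration the change in BMSC-like cells was 0.35 (edgeR adjusted p = 0.14), and Fgfr1 was not called in dpMSC-like or mpMSC-like cells, the marrow stromal subclasses of this class. The part of RNA from other cells in the BMSC-like rise was not tested.

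In endothelial-like cells Fgfr1 was lowest of the 6 classes in Control, at 56.5 and 43.5 CPM, and reached 151 and 144 CPM in Fracture. This rise of 1.69 ± 0.13 (edgeR adjusted p = 0.0059) was close in size to that of Fgfr3 in smooth muscle-like cells (1.66 ± 0.37). In endothelial-like cells 19.2% of genes were called higher and 17.2% lower. Erythroid-like cells, which should lack the receptor, held 10.7 and 5.38 CPM in Control and 104 and 119 CPM in Fracture. With the cells of highest doublet score left out, an alternative chosen after seeing the data, Fgfr1 was at 44.9 and 35.7 CPM against 112 and 106 CPM in endothelial-like cells and at 65.8 and 72.9 CPM in Fracture erythroid-like cells. The part of RNA from other cells in this rise was not tested.

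Smooth muscle-like cells moved the other way. Fgfr1 was at 155 and 156 CPM in Control and 105 and 88.0 CPM in Fracture, and fell by 0.67 on the log2 scale (SE 0.14, edgeR adjusted p = 0.022). In this class 13.3% of genes were called higher and 12.1% lower. The Fracture values were near or below those of Fracture erythroid-like cells. Without integration the change was -1.48 (adjusted p = 0.0053), and with the highest doublet scores left out -1.38 (adjusted p = 0.0030). Fibroblast-like cells showed overlapping groups, with 240 and 197 CPM in Control and 228 and 219 CPM in Fracture (log2 change 0.08 ± 0.15, adjusted p = 0.74).

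Fgfr2 fell in osteoblast-like, BMSC-like and fibroblast-like cells and was called higher in none of the 6 classes, although 2 of them gave a called rise under other settings. Its level was highest in BMSC-like cells, at 321 and 329 CPM in Control and 155 and 153 CPM in Fracture (log2 change -0.88 ± 0.07, edgeR adjusted p = 0.0020). These cells supplied 54.5% and 64.9% of the Fgfr2 UMIs of the 6 classes in Control and 25.6% and 24.4% in Fracture, where chondrocyte-like cells supplied 54.7% and 55.8%. The fall in BMSC-like cells depended on which Fracture cells were given that name, since without integration the log2 change was 0.12 (adjusted p = 0.71). In osteoblast-like cells Fgfr2 went from 84.4 and 89.1 CPM to 48.3 and 46.1 CPM and fell by 0.95 (SE 0.08, adjusted p = 0.0069). Here 9.64% of genes were called higher and 6.69% lower.

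In fibroblast-like cells Fgfr2 was at 79.6 and 53.7 CPM in Control and 23.4 and 24.97 CPM in Fracture, a log2 change of -1.44 ± 0.22 (edgeR adjusted p = 0.024). Both Fracture values were well below both Control values. In this class 6.48% of genes were called higher and 6.06% lower. Without integration the change was -0.72 (adjusted p = 0.19), and the call was also lost with the preparation number as a block. Chondrocyte-like cells held 38.8 and 30.5 CPM in Control and 38.5 and 40.003 CPM in Fracture, with overlap and no call (log2 change 0.33, adjusted p = 0.10). Without integration Fgfr2 was called higher there (0.56, edgeR adjusted p = 0.0086). Endothelial-like and smooth muscle-like cells held between 8.09 and 18.3 CPM in all 4 preparations, and Fracture erythroid-like cells 15.0 and 13.9 CPM. In endothelial-like cells the change was 0.59 and not called (adjusted p = 0.27), but it was called with the called doublets left out (1.30, adjusted p = 0.040) and with the highest doublet scores left out (1.22, adjusted p = 0.022).

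Fgfr3 was highest in chondrocyte-like cells in both groups, and its change there was not called. Chondrocyte-like cells held 280 and 266 CPM in Control and 269 and 269 CPM in Fracture, so the Fracture values lay between the Control values (log2 change 0.13 ± 0.05, edgeR adjusted p = 0.10, and -0.025 without TMM scaling factors). Among cells thinned to 1000 UMIs each, 23.5% and 21.4% of Control and 21.8% and 21.6% of Fracture chondrocyte-like cells held a UMI of it (82.7% and 83.1%, 77.6% and 79.2% unthinned). Chondrocyte-like cells supplied 79.8% and 73.3% of all Fgfr3 UMIs of the 6 classes in Control and 93.9% and 93.8% in Fracture. The number of these cells went from 2168 and 709 to 6824 and 7171 per preparation.

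Fgfr3 rose in osteoblast-like cells, from 11.5 and 9.13 CPM to 18.5 and 19.4 CPM (log2 change 0.81 ± 0.13, edgeR adjusted p = 0.023), and in smooth muscle-like cells, from 17.5 and 7.64 CPM to 45.1 and 39.7 CPM (1.66 ± 0.37, adjusted p = 0.028). Groups did not overlap in either class. The smooth muscle-like values in Fracture were below those of erythroid-like cells, which held 60.1 and 65.0 CPM in Fracture and 5.76 and 0.562 CPM in Control, and the part of RNA from other cells in this rise was not tested. With the highest doublet scores left out, smooth muscle-like cells held 8.57 and 1.80 CPM against 15.6 and 14.8 CPM (adjusted p = 0.15), and without integration the change was 0.51 (adjusted p = 0.43). The osteoblast-like values in Fracture were below the erythroid-like level too. Chondrocyte markers in osteoblast-like cells were at 7.06% and 7.37% of their chondrocyte-like level in Control and 5.07% and 4.98% in Fracture, and the part of RNA from other cells was not tested. Without integration the change there was 0.38 (adjusted p = 0.17), and the call was also lost with the preparation number as a block.

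In endothelial-like cells Fgfr3 was at 56.2 and 37.9 CPM in Control, above the erythroid-like level, and at 54.8 and 49.6 CPM in Fracture, below it. The change was not called (log2 change 0.28 ± 0.20, edgeR adjusted p = 0.32). With the highest doublet scores left out it turned, to 53.5 and 37.0 CPM against 23.6 and 20.2 CPM (log2 change -0.97, adjusted p = 0.024). BMSC-like cells held 76.7 and 53.5 CPM against 42.4 and 45.6 CPM without overlap (adjusted p = 0.16), and fibroblast-like cells between 12.0 and 17.7 CPM in all 4 preparations. Without integration the log2 change in fibroblast-like cells was -0.94 (adjusted p = 0.062) in place of 0.01.

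Taken over the UMIs of the 3 receptors, the balance within a class shifted towards Fgfr1 in 5 of the 6 classes. In BMSC-like cells Fgfr2 made up 54.3% and 58.8% of receptor UMIs in Control and 34.0% and 34.1% in Fracture, and Fgfr1 went from 32.7% and 31.7% to 56.7% and 55.8%. Chondrocyte-like cells had 53.1% and 47.8% Fgfr3 in Control and 42.2% and 42.9% in Fracture. In endothelial-like cells Fgfr1 went from 43.3% and 48.6% to 67.7% and 68.0%. Smooth muscle-like cells were the exception, with Fgfr3 at 9.20% and 4.33% in Control and 28.1% and 28.9% in Fracture. These are shares of UMIs and were not tested beyond the 4 values, since an exact permutation test of 2 against 2 preparations cannot give a p below 0.33. The BMSC-like shares depend on which Fracture cells were given that name. Without integration, Fgfr2 there changed by 0.12 and Fgfr1 by 0.35 on the log2 scale. Chondrocyte markers were higher in Fracture endothelial-like, smooth muscle-like, BMSC-like and fibroblast-like cells, and the part of RNA from other cells was not tested. With the highest doublet scores left out, Fracture smooth muscle-like cells held 15.6 and 14.8 CPM of Fgfr3 in place of 45.1 and 39.7 CPM.

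**Figure D2:**
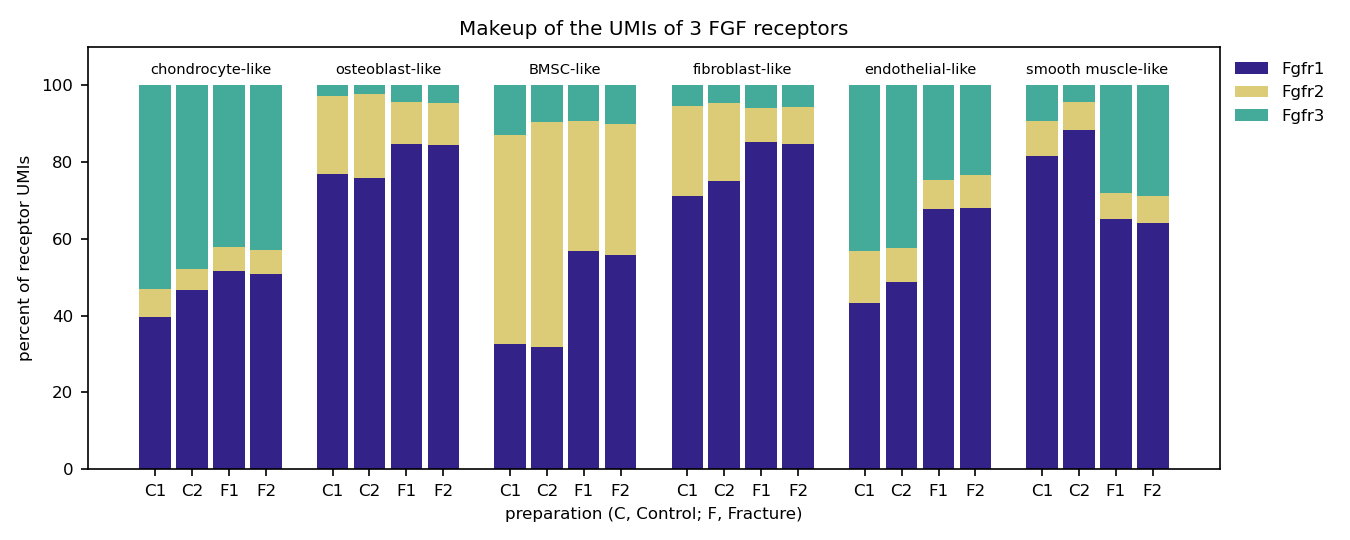
Percent of the UMIs of Fgfr1, Fgfr2 and Fgfr3 taken by each receptor (stacked bars, vertical axis from 0), in each class for Control 1 and 2 (C) and Fracture 1 and 2 (F). In BMSC-like cells the Fgfr2 share was 54.3% and 58.8% in Control and 34.0% and 34.1% in Fracture, and it depends on which Fracture cells were given that name.

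Among the ligands, Fgf1 fell in the most classes. Its level was highest in smooth muscle-like cells, with 159 and 167 CPM in Control and 27.3 and 28.2 CPM in Fracture (log2 change -2.53 ± 0.13, edgeR adjusted p = 0.0018). The groups lay far apart, and each preparation was close to its partner. Among smooth muscle-like cells thinned to 1000 UMIs, 17.6% and 14.6% held a UMI of Fgf1 in Control and 2.91% and 3.43% in Fracture (50.2% and 57.5%, 19.8% and 21.7% unthinned, at median depths of 4583 and 5745, 7558 and 7951 UMIs). Of 819, 1812, 256 and 343 thinned erythroid-like cells none held one, which allows shares of up to 0.366%, 0.166%, 1.17% and 0.875%, and unthinned 0.349% and 0.055% of Control and 0.391% and 1.17% of Fracture erythroid-like cells did (median depths of 2838 and 8585, 8100 and 8244 UMIs). These limits are for cells with a UMI at this depth, not for cells expressing the gene, and cover counting error only.

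Fgf1 also fell in fibroblast-like cells, from 19.4 and 35.2 CPM to 2.03 and 2.56 CPM (log2 change -3.39 ± 0.37, edgeR adjusted p = 0.013), and in chondrocyte-like cells, from 18.5 and 15.1 CPM to 4.98 and 5.26 CPM (-1.56 ± 0.12, adjusted p = 0.0034). The fibroblast-like values rest on 46, 38, 15 and 23 UMIs. In BMSC-like and endothelial-like cells it lay between 3.19 and 6.63 CPM in every preparation and was not called, except in BMSC-like cells without TMM scaling factors (log2 change -0.80, edgeR adjusted p = 0.037). Osteoblast-like cells held under 1 CPM. Smooth muscle-like cells supplied 44.7% and 36.4% of the Fgf1 UMIs of the 6 classes in Control and 7.22% and 6.62% in Fracture, while chondrocyte-like cells went from 40.3% and 31.2% to 74.3% and 72.4%.

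Fgf7, known as keratinocyte growth factor, was nearly a gene of the marrow stroma alone in Control. BMSC-like cells held 200 and 242 CPM there and 62.1 and 57.6 CPM in Fracture, so it fell by 1.69 on the log2 scale (SE 0.12, edgeR adjusted p = 0.0018). Without integration the change was -1.02 (adjusted p = 0.057). These cells supplied 92.1% and 96.9% of Fgf7 UMIs in Control and 49.5% and 46.6% in Fracture. Thinned to 1000 UMIs, 19.7% and 22.8% of Control and 5.89% and 7.24% of Fracture BMSC-like cells held a UMI (55.2% and 68.5%, 28.6% and 28.1% unthinned), against at most 0.488% of erythroid-like cells.

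Fibroblast-like cells moved in the opposite direction. Fgf7 was at 11.4 and 11.1 CPM in Control and 29.9 and 34.9 CPM in Fracture, the only called rise of the 4 ligands among the 6 classes (log2 change 1.57 ± 0.18, edgeR adjusted p = 0.014). These values rest on 27, 12, 221 and 313 UMIs. Among thinned fibroblast-like cells, the mean share with a UMI of Fgf7 was 1.88% (SD 1.67) in Control and 2.32% (SD 0.90) in Fracture. These thinned shares differed by less than their SD. Unthinned, the means were 6.85% (SD 0.42) and 17.3% (SD 0.76). The fibroblast-like part of the Fgf7 UMIs went from 0.795% and 0.370% to 17.1% and 21.7%. In osteoblast-like cells Fgf7 fell, from 2.189 and 1.80 CPM to 0.453 and 0.386 CPM, on 67, 36, 8 and 8 UMIs (edgeR adjusted p = 0.014). Fgf7 passed the filter on low counts there only through Control, which favoured a fall. In chondrocyte-like cells it was at 2.66 and 1.12 CPM in Control and 4.44 and 4.04 CPM in Fracture and was not called (log2 change 1.20 ± 0.34, adjusted p = 0.056). It was called under several other settings, with edgeR log2 changes from 1.21 with at least 3000 UMIs per cell (adjusted p = 0.0495) to 2.58 with the highest doublet scores left out (adjusted p = 0.0021), among them DESeq2 (1.26, adjusted p = 0.0059), no filter on low counts (1.24, adjusted p = 0.031), called doublets left out (1.73, adjusted p = 0.0067) and classes without integration (1.95, adjusted p = 0.0039). Endothelial-like cells (log2 change -1.23, adjusted p = 0.063) and smooth muscle-like cells (adjusted p = 0.64) gave no call. The endothelial-like change was called with no filter on low counts (-1.25, adjusted p = 0.033) and with the preparation number as a block (-1.20, adjusted p = 0.048), and it was -0.13 with the called doublets left out (adjusted p = 0.76).

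Fgf18, a growth factor of perichondrium and joint tissue, was carried by fibroblast-like cells. It was at 71.6 and 79.6 CPM in Control and 21.1 and 19.5 CPM in Fracture, on 170, 86, 156 and 175 UMIs, and fell by 1.83 on the log2 scale (SE 0.12, edgeR adjusted p = 0.0063). No other class exceeded 6.11 CPM in any preparation. Fracture preparations held 677 and 774 fibroblast-like cells against 290 and 98 in Control, and these cells supplied 67.0% and 73.2% of Fgf18 UMIs in Fracture, next to 63.9% and 64.2% in Control. In chondrocyte-like cells it was at 1.12 and 1.04 CPM against 0.551 and 0.285 CPM (adjusted p = 0.079). Osteoblast-like, endothelial-like and smooth muscle-like cells held too few UMIs for the test.

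Fgf2 was scarce everywhere. It fell in chondrocyte-like cells, from 2.63 and 2.33 CPM to 1.37 and 1.03 CPM (edgeR adjusted p = 0.036), and in fibroblast-like cells, from 3.79 and 12.0 CPM to 0.811 and 0.446 CPM on 9, 13, 6 and 4 UMIs (adjusted p = 0.049). The Control fibroblast-like values lay far apart from each other, and only they passed the filter on low counts, which favoured this fall. Both Fgf2 calls were lost with the preparation number as a block. In BMSC-like cells the groups did not overlap but the change was not called (adjusted p = 0.19), and the other classes were below the limit for the test.

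**Figure D3:**
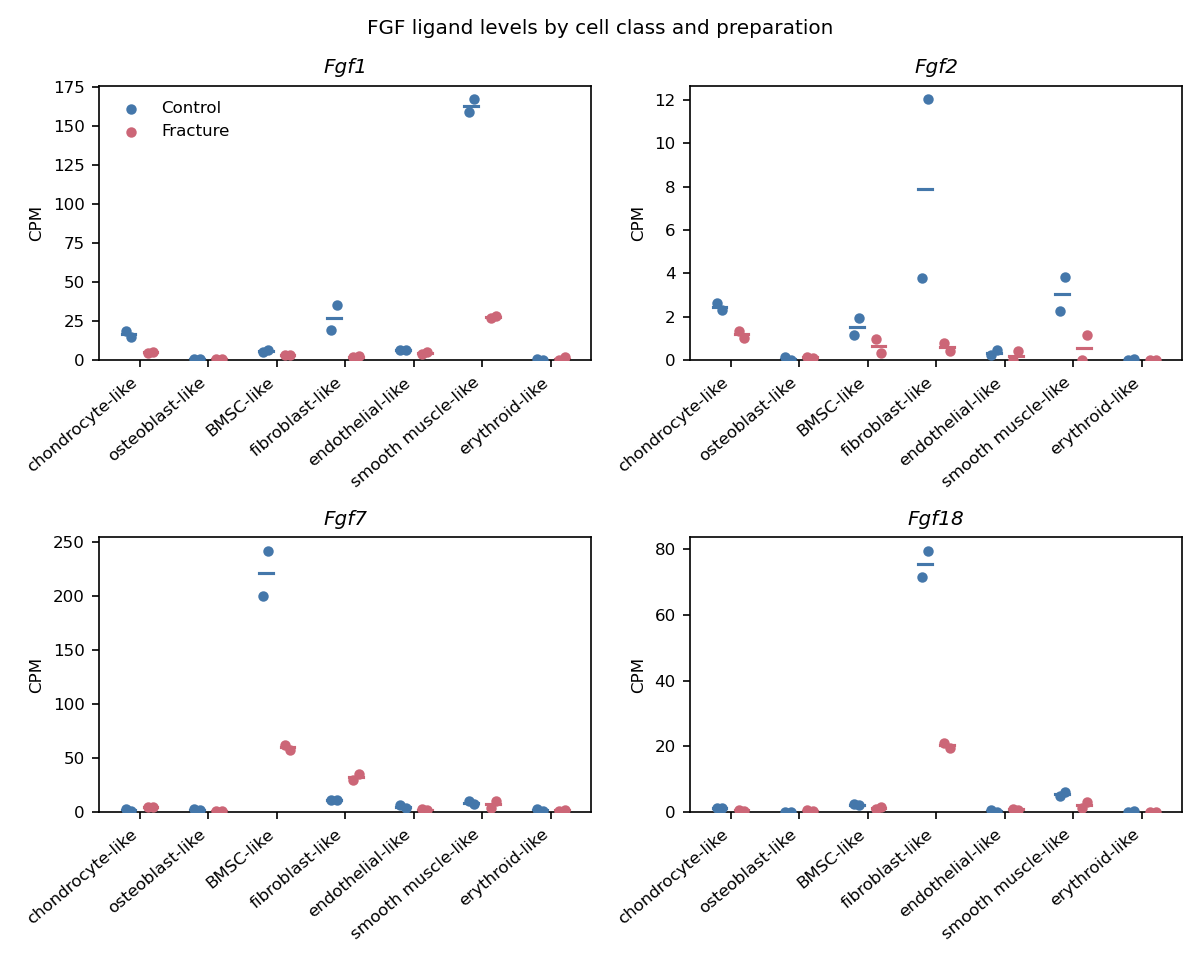
CPM (vertical axes, from 0) of Fgf1, Fgf2, Fgf7 and Fgf18 in each cell class, 1 point for each of the 2 Control and 2 Fracture preparations. Fgf1 was highest in smooth muscle-like cells (159 and 167 CPM in Control), Fgf7 in BMSC-like cells (200 and 242 CPM in Control) and Fgf18 in fibroblast-like cells (71.6 and 79.6 CPM in Control), and each was lower there in Fracture.

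Whether the change differed between the 6 classes was tested by a class-by-group term in 1 edgeR model of all 24 sums, with the preparation as a block. It was called for 6 of the 7 genes, with adjusted p between 4.1e-07 for Fgf7 and 0.0035 for Fgf18, and not for Fgf2 (adjusted p = 0.13). Over all genes the term was called for 60.2% of tests, so a difference between classes was the common case. Fgfr1 rose in 3 classes and fell in 1, Fgfr3 rose in 2, Fgfr2 and Fgf1 fell in 3 each, and Fgf7 fell in 2 and rose in 1. For Fgf18 the largest fitted terms, 4.90 in osteoblast-like and 2.66 in endothelial-like cells relative to chondrocyte-like cells, rest on 0, 1, 8 and 4 and on 5, 0, 10 and 8 UMIs. Both classes where Fgfr3 rose stayed below its erythroid-like level in Fracture.

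**Figure D4:**
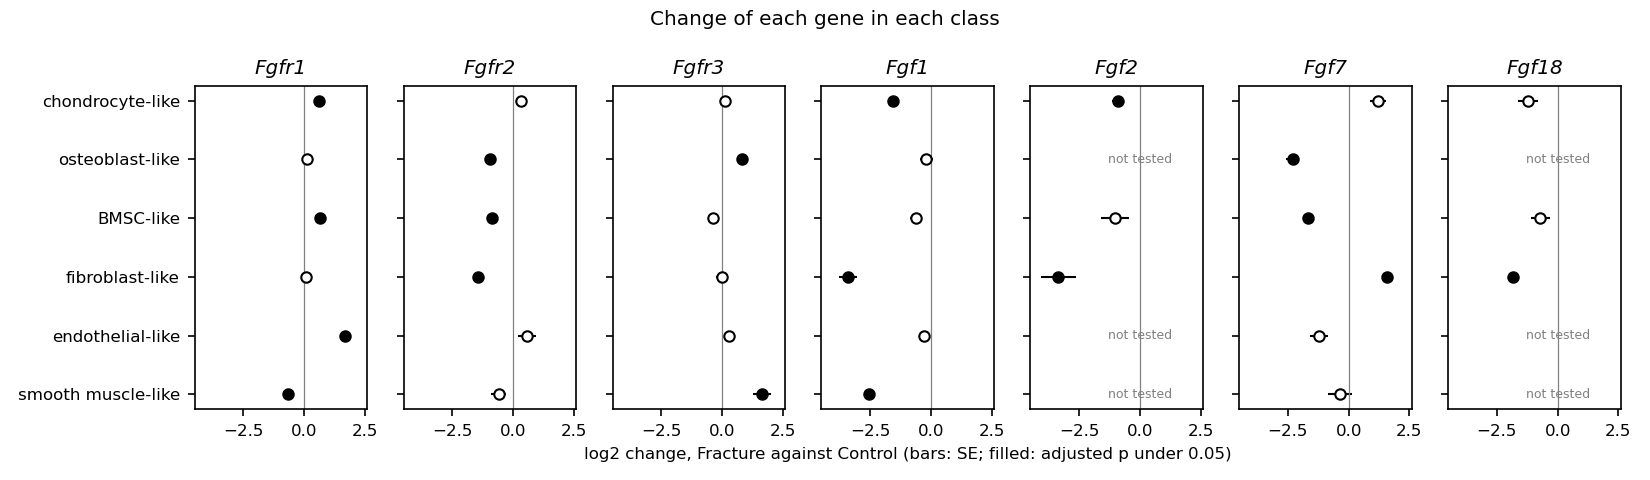
Log2 change between Fracture and Control (horizontal axis) of each of the 7 genes in each class, from edgeR, with bars for the standard error and filled points for an adjusted p under 0.05. Fgf7 lies on opposite sides of 0 in BMSC-like (-1.69) and fibroblast-like cells (1.57), as does Fgfr1 in endothelial-like (1.69) and smooth muscle-like cells (-0.67). The fibroblast-like Fgf7 change rests on 27 and 12 UMIs in Control.

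The chondrocyte-like and stromal classes were then divided into subclasses on integrated values. Changes within subclasses were not run under the other settings, so their dependence on integration was not tested. Without integration, 1 cluster of chondrocyte-like cells held 144 and 46 Control cells against 5542 and 5807 Fracture cells. Shares of cells are over the cells of the subclasses described here and leave out 2 small clusters. Hypertrophic chondrocyte-like cells, which express Col10a1 and Mmp13, had by far the most Fgfr1, at 628 and 813 CPM in Control and 840 and 795 CPM in Fracture, with overlapping groups and no call (edgeR adjusted p = 0.31). None of the 5 genes tested there was called, where 7.77% of all genes were. These cells were 7.62% and 11.05% of chondrocyte-like cells in Control and 20.5% and 20.4% in Fracture. In the cluster led by Serpina1a, Fgfr1 rose from 144 and 149 CPM to 251 and 261 CPM (log2 change 0.91 ± 0.07, adjusted p = 0.011), the single call of 5 tests against 7.41% of all genes. That cluster went from 42.6% and 46.1% of chondrocyte-like cells to 12.3% and 12.3%.

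In the cluster led by Lcn2, Fgfr1 fell from 146 and 174 CPM to 112 and 106 CPM (edgeR adjusted p = 0.041), while Fgfr3 rose from 269 and 284 CPM to 388 and 394 CPM (log2 change 0.55 ± 0.08, adjusted p = 0.012). Fgfr1 was thus lower in this cluster although it was higher in chondrocyte-like cells as a whole. Of 6 genes tested 5 were called, where 18.7% of all genes were, and Fgf1 had the lowest adjusted p, from 36.9 and 27.0 CPM to 4.25 and 4.23 CPM (-2.95 ± 0.16, adjusted p = 0.00089). Fgf2 fell there, and Fgf7 rose, from 0.268 and 0 CPM (1 and 0 UMIs) to 3.27 and 2.92 CPM. Fgf7, which is among the 5 calls, passed the filter on low counts only through Fracture, so the filter favoured this rise. The cluster held 10.4% and 9.74% of chondrocyte-like cells in Control and 30.03% and 30.3% in Fracture.

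Fgfr3 fell in articular chondrocyte-like cells, which express Prg4 and Cilp, from 216 and 251 CPM to 147 and 153 CPM (log2 change -0.52 ± 0.11, edgeR adjusted p = 0.035). Prg4 and Cilp also led the fibroblast-like subclass, so they do not set these cells apart from it. In prehypertrophic chondrocyte-like cells Fgfr3 was higher in Fracture, at 325 and 331 CPM against 265 and 200 CPM (0.51 ± 0.14, edgeR adjusted p = 0.046). For Fgfr3, subclasses thus moved in opposite directions within a class whose level was steady, while the makeup of the class changed as well. Of 7 genes tested in the articular subclass 2 were called, where 17.1% of all genes were, and of 5 in the prehypertrophic subclass 3, where 23.8% were. In cycling chondrocyte-like cells 2 of 4 tests were called (7.71% of all genes), with Fgfr2 higher, from 26.9 and 34.8 CPM to 48.2 and 46.7 CPM. Fgf1 fell in 4 of the 6 chondrocyte subclasses and was not called in the hypertrophic one (adjusted p = 0.10) or the cluster led by Serpina1a (adjusted p = 0.070).

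If Fracture subclass levels were weighted by the mean Control makeup, a description chosen after seeing the data, chondrocyte-like Fgfr1 in Fracture came to 282 and 280 CPM in place of 329 and 318 CPM, above the 211 and 257 CPM of Control under the same weights. Chondrocyte-like Fgf1 came to 6.23 and 6.51 CPM against 18.6 and 14.7 CPM. Fgfr1 thus kept its direction with a smaller difference, and Fgf1 changed little. Chondrocyte-like Fgfr3 came to 264 and 260 CPM in place of 269 and 269 CPM, below the 283 and 268 CPM of Control. Chondrocyte-like Fgf2 came to 2.45 and 1.57 CPM in place of 1.37 and 1.03 CPM and overlapped the 2.59 and 2.32 CPM of Control, and Fgf7 came to 2.77 and 2.43 CPM in place of 4.44 and 4.04 CPM, overlapping the 2.47 and 1.17 CPM of Control.

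The marrow stroma was split into dpMSC-like cells, named after diaphyseal mesenchymal stromal cells and expressing Lepr, Adipoq and Cxcl12, and mpMSC-like cells, after metaphyseal ones. The first made up 63.3% and 69.3% of BMSC-like cells in Control and 7.96% and 10.1% in Fracture, while cells of the fibroblast-like subclass went from 2.14% and 1.16% to 35.5% and 33.9%. In dpMSC-like cells Fgfr2 was at 362 and 360 CPM in Control and 324 and 237 CPM in Fracture and was not called (log2 change -0.27 ± 0.15, edgeR adjusted p = 0.31). Fgf7 was the single call among 5 tests there, against 11.3% of all genes, from 294 and 316 CPM to 138 and 108 CPM (-1.21 ± 0.14, adjusted p = 0.012). Fgfr1 was at 131 and 133 CPM against 174 and 231 CPM and was not called (0.73 ± 0.17, adjusted p = 0.058). Over all stromal classes, 87 and 115 dpMSC-like cells were found in the Fracture preparations.

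In mpMSC-like cells Fgfr2 fell from 285 and 284 CPM to 179 and 173 CPM (log2 change -0.57 ± 0.07, edgeR adjusted p = 0.0077), and Fgf7 from 99.2 and 119 CPM to 24.1 and 30.8 CPM (-1.87 ± 0.17, adjusted p = 0.0041). Fgfr1 was level there, at 266 and 263 CPM against 271 and 260 CPM (adjusted p = 0.23). Fgf18 fell as well, from 5.19 and 4.64 CPM to 0.213 and 0.375 CPM on 34, 19, 1 and 2 UMIs (-3.82 ± 0.45, edgeR adjusted p = 0.0067). It passed the filter on low counts only through Control, where it was high, so the filter favoured this fall. Of 6 genes tested 3 were called, where 30.7% of all genes were. The fibroblast-like subclass gave 3 calls of 7, where 20.9% of all genes were called, with Fgf18 at 61.9 and 69.3 CPM against 13.8 and 13.3 CPM (-2.192 ± 0.11, edgeR adjusted p = 0.0027). Fgf2, called lower there, passed the filter only through Control. Fgf7 of this subclass was at 31.8 and 50.8 CPM against 56.0 and 53.2 CPM and was not called (edgeR adjusted p = 0.14). The osteoblast-like subclass gave 3 calls of 5, where 15.9% of all genes were called, in the same genes and directions as its class. With the Control makeup, Fracture BMSC-like cells came to 212 and 245 CPM of Fgfr1, to 270 and 210 CPM of Fgfr2 and to 95.4 and 77.7 CPM of Fgf7, each between their Control and Fracture values.

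**Figure D5:**
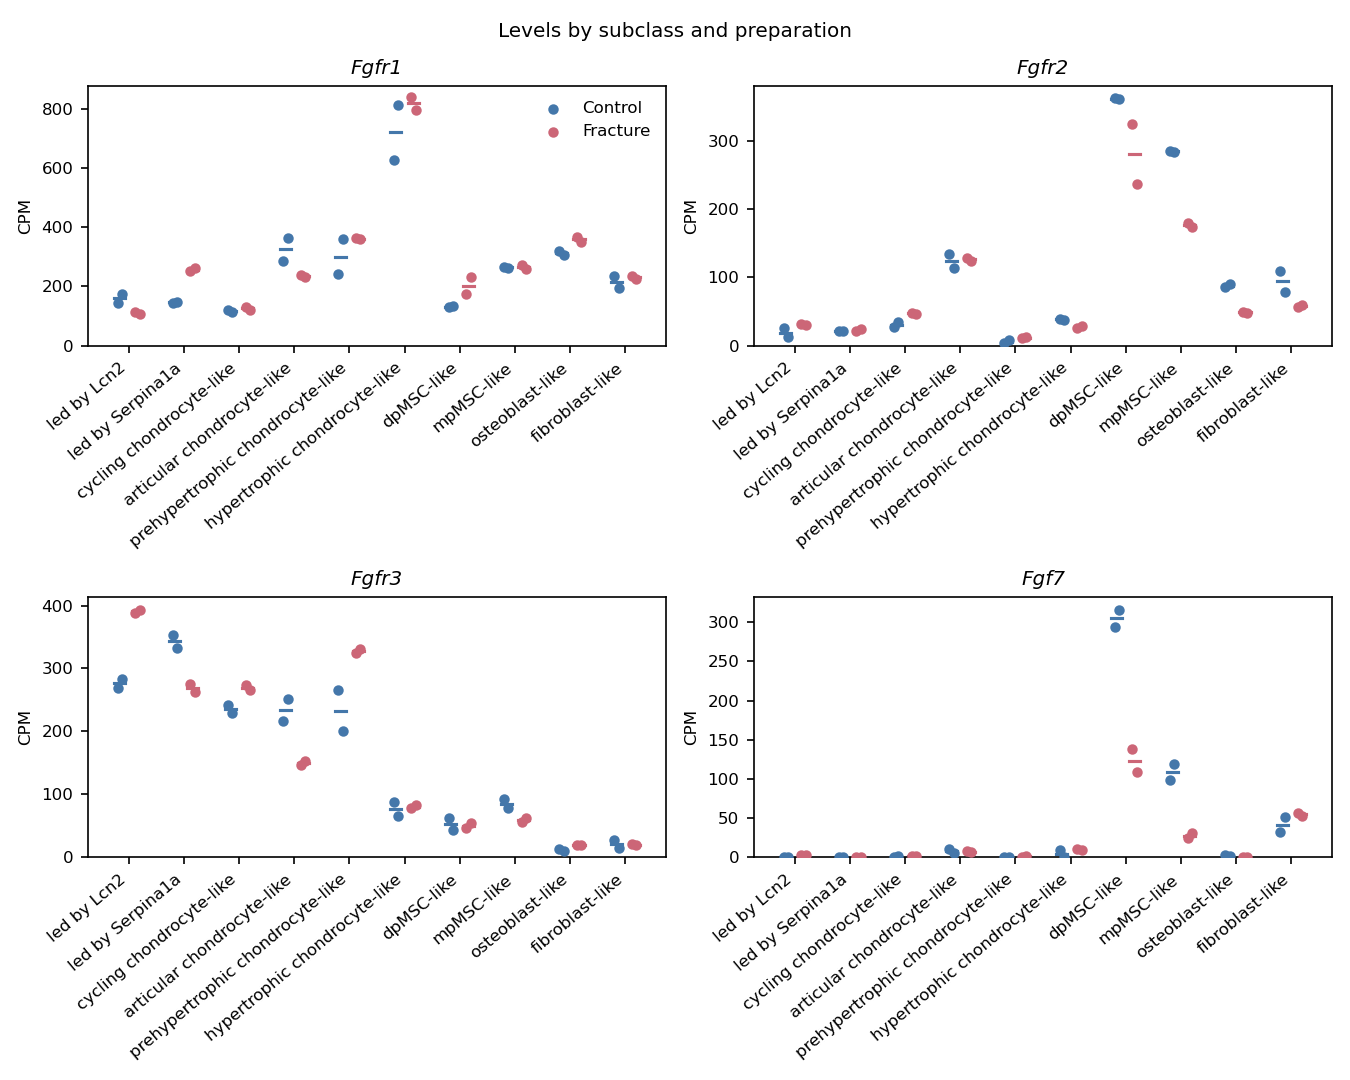
CPM (vertical axes, from 0) of member genes in the subclasses of chondrocyte-like and stromal cells, 1 point for each of the 2 Control and 2 Fracture preparations. Hypertrophic chondrocyte-like cells stand out for Fgfr1 at 628 to 840 CPM. For Fgfr3 the cluster led by Serpina1a was highest in Control (332 to 354 CPM) and the cluster led by Lcn2 in Fracture (388 to 394 CPM).

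The partners of the 7 genes were counted over the same classes, and each count is set against the calls among the tests of all genes. Heparan sulfate carriers, which present FGF ligands to receptors, gave 26 rises and 7 falls in 64 tests of 11 genes (40.6% and 10.9%, against 16.1% and 14.9% of all tests), with a median log2 change of 0.33. Of these rises 5 were in endothelial-like, 4 in smooth muscle-like, 5 in BMSC-like and 3 in fibroblast-like cells, where chondrocyte markers were higher in Fracture. The part of RNA from other cells in these rises and in the changes of the lists below was not tested. Gpc1, a glypican, rose in 5 classes and most in endothelial-like cells, from 13.2 and 11.5 CPM to 53.4 and 42.1 CPM (2.07 ± 0.16, edgeR adjusted p = 0.0059). Sdc1 and Sdc2, which are syndecans, and Hspg2, which encodes perlecan, each rose in 4 classes. Sdc4 rose in 3, in endothelial-like cells from 65.3 and 35.2 CPM to 253 and 250 CPM, but it was also the most abundant carrier in chondrocyte-like cells (1404 to 1778 CPM). Gpc4 rose in 3 classes and fell in BMSC-like cells, and Gpc6 rose in osteoblast-like cells and fell in chondrocyte-like and BMSC-like cells. Fgfbp3, a secreted FGF carrier, fell in 3 classes.

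The feedback regulators listed were Sprouty, Spred and dual-specificity phosphatase genes, Il17rd, Cbl and the genes Flrt1, Flrt2 and Flrt3. They gave 11 rises and 17 falls in 78 tests of 14 genes, with a median log2 change of -0.17. These shares, 14.1% and 21.8%, were near the 16.1% and 14.9% of all tests. Spry1, a Sprouty gene, fell in BMSC-like cells from 221 and 225 CPM to 24.5 and 23.8 CPM (-3.01 ± 0.07, edgeR adjusted p = 0.00087), and fell in chondrocyte-like and fibroblast-like cells too. Smooth muscle-like cells were the opposite case, with 41.9 and 57.3 CPM in Control and 99.2 and 99.5 CPM in Fracture (1.04 ± 0.19, adjusted p = 0.014). Dusp5, a nuclear phosphatase of ERK, rose in 5 classes, for example from 4.54 and 4.24 CPM to 18.7 and 16.9 CPM in BMSC-like cells. Spry2, Spred2 and Il17rd fell in 3 classes each. Flrt2 rose in endothelial-like cells and fell in osteoblast-like and BMSC-like cells, and Flrt3 rose in BMSC-like cells and fell in chondrocyte-like and endothelial-like cells. Spred1, the most abundant of the list, was called in no class.

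Target transcription factors and cell cycle genes gave 10 rises and 3 falls in 34 tests of 6 genes, or 29.4% and 8.82% against 16.1% and 14.9% of all tests (median log2 change 0.23). Egr1, an immediate early gene, rose in osteoblast-like cells from 166 and 174 CPM to 685 and 655 CPM (1.90 ± 0.08, edgeR adjusted p = 0.0022) and in BMSC-like cells. Ccnd1, which encodes cyclin D1, fell in chondrocyte-like cells from 80.1 and 66.9 CPM to 27.6 and 28.5 CPM (-1.23 ± 0.10, adjusted p = 0.0036) and rose in BMSC-like, endothelial-like and smooth muscle-like cells. Myc rose in 3 classes, Etv4 in 2, and Etv1 fell in 2. The relay from receptor to ERK gave 10 rises and 7 falls in 70 tests of 12 genes, with a median log2 change of -0.01. At 14.3% and 10.0% its calls were near the 16.1% and 14.9% of all tests. Its kinase gene Map2k2 rose in 4 classes, and Mapk3 rose in chondrocyte-like and fell in endothelial-like cells.

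Of 18 other FGF ligand genes, 8 were tested in at least 1 class, with 3 rises and 9 falls in 20 tests, or 15.0% and 45.0% against 16.1% and 14.9% of all tests (median log2 change -0.65). Fgf11 and Fgf13, which encode intracellular FGF homologues that do not signal through FGF receptors, fell in 3 classes each, and Fgf14 of the same family rose in 2. Fgf13 was highest in smooth muscle-like cells, at 20.5 and 19.9 CPM in Control and 5.09 and 1.15 CPM in Fracture. It passed the filter on low counts there only through Control, which favoured a fall. These ligands were scarce, and how many of the 20 tests were entered through 1 group alone was not counted. The other receptors and coreceptors gave 3 rises and 1 fall in only 8 tests (37.5% and 12.5%, against 16.1% and 14.9%). Fgfrl1, a receptor without the kinase domain, rose in chondrocyte-like cells from 209 and 181 CPM to 244 and 231 CPM (0.44 ± 0.08, edgeR adjusted p = 0.018), as well as in osteoblast-like and endothelial-like cells, and fell in BMSC-like cells. Fgfr4 was tested in chondrocyte-like cells alone, on 27, 19, 51 and 49 UMIs, and was not called (adjusted p = 0.10).

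The genes whose levels followed the 7 most closely were sought by Pearson's r of log2(CPM + 1) over the 24 sums of class and preparation, among 6581 or 6582 genes. This is a description, since the 4 sums of a class share cell types and the 6 sums of a preparation share libraries. Fgfr1 was followed by Ptgis (r = 0.91), Tecr and Cercam, Fgfr2 by Wif1 (r = 0.92), Kcnk2 and Insig2, and Fgfr3 by Crlf3 (r = 0.92), Slc26a2 and F5. Among the genes that followed Fgf1 were Ntrk2 (r = 0.93) and Ppp1r14a, while Fgf7 was followed by Grem1 (r = 0.95), Fzd1 and Pappa, and Fgf18 by Tnxb (r = 0.93), Chp1 and Sod3. For Fgf2, with a mean of 1.57 CPM, the closest genes were Snapin (r = 0.77), Tm9sf2 and Galnt11.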

How the data were processed

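Bone stromal cells were profiled with the 10x Chromium 3′ kit (version 3). The authors deposited counts: UMIs per gene and barcode for 8 libraries. The submitters' processing notes name STAR 2.7.3a, UMI-tools 1.0.0, featureCounts 1.6.4 and mm10, and the study's methods name STARsolo, so which counter made the tables is uncertain. The members and lists were chosen with earlier results of these data known.

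Barcodes with 500 to 6000 genes and at most 25% mitochondrial UMIs and genes in at least 3 cells were kept. Preparations were integrated with Seurat 5.3.0 (30 anchor dimensions, 12 components, resolution 0.1; 168 FGF and cell cycle genes withheld). Scrublet marked 1.22% of cells, under 0.5% in 3 Fracture libraries where it has not worked; marked cells were kept in the main results. Counts were summed per class and preparation (at least 20 cells in each) and tested with edgeR 4.0.16 (R 4.3.3; glmQLFit, glmQLFTest, filterByExpr, TMM), with Benjamini-Hochberg adjustment over all genes of a class. CPM in the text is plain, whereas log2 changes include TMM factors. Without these factors the median log2 change of all genes was -0.16 in chondrocyte-like, -0.23 in BMSC-like and -0.11 in endothelial-like cells, and calls higher and lower there went from 3285 and 3106 to 2162 and 4560, from 3765 and 3844 to 2792 and 5389 and from 2736 and 2447 to 2084 and 3389. All 7 genes are named, and other genes of the FGF lists where called in at least 2 classes in 1 direction or among the 2 most abundant of their list. Alternatives were RLE factors, DESeq2 1.42.0, no filter, a replicate block, doublets left out, classes without integration, a minimum of 3000 UMIs and each preparation left out, and, chosen after seeing the data, no TMM factors, the 6% of cells with the highest doublet score left out, and 2 small subclusters left out. For the likeness of levels, 1 gene among those closest to Fgf1 is not reported here.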

Additional observations from a re-analysis of the deposited data

Results flagged for a closer look

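The change between Fracture and Control differed between cell classes for 6 of the 7 genes by the class-by-group term of the edgeR model, with the preparation as a block. The adjusted p was 4.092e-07 for Fgf7, 4.9147e-07 for Fgfr1, 2.3151e-06 for Fgf1, 1.3827e-05 for Fgfr2, 3.1342e-05 for Fgfr3 and 0.0034575 for Fgf18. Fgf7 had log2 changes of -1.69 in BMSC-like and 1.57 in fibroblast-like cells, the latter on 27 and 12 UMIs in Control. Fgfr1 had 1.69 in endothelial-like and -0.67 in smooth muscle-like cells, Fgf1 -3.39 in fibroblast-like and -0.18 in osteoblast-like cells, Fgfr2 -1.44 in fibroblast-like and 0.59 in endothelial-like cells, and Fgfr3 1.66 in smooth muscle-like and -0.36 in BMSC-like cells. Fgf18 had -1.83 in fibroblast-like and -0.72 in BMSC-like cells, and its largest fitted terms, 4.90 in osteoblast-like and 2.66 in endothelial-like cells relative to chondrocyte-like cells, rest on at most 10 UMIs a preparation. The term was called for 60.2% of all genes, and the part of unequal RNA from chondrocytes in the Fracture classes was not tested.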

How the results depend on the processing

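With each preparation left out in turn, 1 to 11 pairs of gene and class were called higher, 2 to 15 lower, and 5 to 7 genes had a class-dependent change. The lone preparation of a group was then assumed to vary like the others. Without Control 1, 11 pairs were called higher, and without Fracture 1, or without Fracture 2, 1 higher and 2 lower. Among called pairs the direction turned once, for Fgfr2 in BMSC-like cells without integration (log2 change 0.12, adjusted p = 0.71). Among pairs not called, classes without integration turned Fgf18 (1.22) and Fgfr3 (0.10) in BMSC-like cells, Fgfr3 in fibroblast-like cells (-0.94) and Fgf7 in smooth muscle-like cells (0.12), none of them called. Leaving out the highest doublet scores turned Fgfr3 in endothelial-like cells to -0.97 (adjusted p = 0.024) and in fibroblast-like cells to -0.29. The fibroblast-like Fgfr3 change, 0.01 as reported, was also -0.025 at 3000 UMIs or more and -0.039 without TMM factors, where chondrocyte-like Fgfr3 was -0.025. With preparations left out in turn, it ranged from -0.18 to 0.43, Fgfr1 in fibroblast-like cells from -0.061 to 0.27 and Fgf7 in smooth muscle-like cells from -1.18 to 0.17. With the preparation number as a replicate block, 5 pairs were called higher and 10 lower, and 4 called pairs were lost and 1 gained. The lost pairs were Fgfr2 and Fgf2 in fibroblast-like cells, Fgfr3 in osteoblast-like cells and Fgf2 in chondrocyte-like cells. The correlation of same-numbered deviations was 0.0085 to 0.053, so the numbers were not taken to pair the preparations. All 18 called pairs were called in the same direction with RLE factors, DESeq2, no filter, called doublets left out, at least 3000 UMIs and no TMM factors. Shares of cells with a UMI moved with thinning in most pairs of gene and class. Counts below about 20 UMIs in a preparation limit Fgf2 in every class but chondrocyte-like cells and the other ligands where they were scarce, as Fgf7 in osteoblast-like cells, and 2 preparations a group limit every result.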
